A study of Mus musculus with 24 samples.

Results

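The liver genes that sense bile acids and foreign compounds were followed in 24 mice: Nr1h4, Nr0b2, Nr5a2, Fgfr4, Klb, Nr1i2, Nr1i3 and Rxra. These 8 genes were taken by symbol, through the GENCODE M21 annotation, from the 22392 genes of the deposited table, and all 8 had a row and enough reads to be tested. In GRCm38 coordinates they lie at chr10:89454234-89533585 (Nr1h4, minus strand), chr4:133553376-133556536 (Nr0b2, plus), chr1:136842571-136960448 (Nr5a2, minus), chr13:55152640-55168759 (Fgfr4, plus), chr5:65348314-65384007 (Klb, plus), chr16:38248323-38294824 (Nr1i2, minus), chr1:171213970-171220701 (Nr1i3, plus) and chr2:27676440-27762957 (Rxra, plus), and all are protein-coding. All mice were of the CD2F1 strain, and each library came from the frozen liver of a separate mouse. The C26-CHO mice (n = 8) were injected with C26 cells, a transplanted colon carcinoma that causes wasting (cachexia), and received cholestyramine at 2% of diet weight from day 1 to day 10 after the injection. The C26 mice (n = 8) carried the same tumour and were untreated, and the CT mice (n = 8) were sham-injected. Cholestyramine binds bile acids in the intestine and carries them out with the faeces. No sham-injected mice fed the resin were among the samples analysed here, and the labels give neither age, sex nor tumour weight.

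Bile acids are made from cholesterol in hepatocytes, and the liver measures its own output. The farnesoid X receptor FXR, encoded by Nr1h4, binds bile acids and induces Nr0b2, whose product SHP is a corepressor without a DNA binding domain that acts on LRH-1, encoded by Nr5a2, at bile acid synthesis genes. A second route runs through the gut hormone FGF15, which signals to hepatocytes through the receptor kinase FGFR4 and its coreceptor beta-Klotho, encoded by Klb, and also lowers bile acid synthesis. The pregnane X receptor PXR (Nr1i2) and the constitutive androstane receptor CAR (Nr1i3) bind or respond to drugs, toxins and some bile acids and induce detoxifying enzymes and transporters. FXR, PXR and CAR bind DNA mostly as heterodimers with a retinoid X receptor, of which RXR-alpha (Rxra) is the main form in liver.

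Nr1i3 fell 8.00-fold in C26 livers relative to CT livers, Nr0b2 and Klb fell 1.66-fold and 1.56-fold, Nr5a2 and Fgfr4 rose 1.63-fold and 1.67-fold, and Nr1h4, Nr1i2 and Rxra did not pass the test. Values are normalised read counts, that is, reads divided by a size factor of the library. Differences are log2 fold changes of value + 1 with the standard error (SE) of a limma fit over all 14040 tested genes, and a gene was called where its adjusted p lay under 0.05. Of the 8 receptor genes 5 were called in C26 vs CT, 2 higher and 3 lower, against 66.3% of all genes tested, 33.3% higher and 32.9% lower. The share of these genes that was called was therefore near that of all genes. The median log2 fold change was -0.14 over the 8 genes and 0.01 over all genes.

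Depth ran from 19905578 to 30503996 reads per library, and the lowest read count of any of the 8 genes in a library was 215, for Nr1i3 in a C26 liver. On the first principal component of all tested genes, which held 71.9% of the variance, the liver of C26-CHO mouse 1 stood apart at -13.4. The other C26-CHO livers lay at 22.3 to 50.5, C26 livers at 28.8 to 54.6 and CT livers at -83.2 to -75.4. The 8 hepatocyte markers were present in every group. In C26 vs CT Alb, Ttr and Apoa1 fell, Tat and Hnf4a rose, and Apob, Serpina1a and Asgr1 did not pass the test. The summed level of the 8 ranged from 822229 to 1007490 in C26-CHO, from 780236 to 1000600 in C26 and from 1592830 to 1848080 in CT. Alb alone averaged 292877 of a mean sum of 907058 in C26-CHO, 250837 of 865047 in C26 and 1034280 of 1705570 in CT. All 7 Kupffer cell markers rose in C26 vs CT, with a summed level of 7079 to 12409 in C26-CHO, 7356 to 9656 in C26 and 4145 to 6073 in CT. Of 6 cholangiocyte markers, Sox9 and Spp1 rose, Krt19, Krt7 and Epcam did not pass the test, and Cftr stayed under 10 reads in every library. The summed level of those 6 was 2164 to 9450 in C26-CHO, 5471 to 11394 in C26 and 312 to 473 in CT. Spp1 made up most of that sum, on average 4706 of 5158 in C26-CHO, 7557 of 8215 in C26 and 330 of 417 in CT. All 3 tested neutrophil markers rose, and 3 others averaged under 10 reads a library, with a sum of all 6 of 88.4 to 310 in C26-CHO, 132 to 598 in C26 and 11.5 to 28.3 in CT. Of 6 sinusoidal endothelial markers 4 rose and 1 fell, and of 6 stellate cell markers 2 rose and 1 fell. Of 6 T, B and NK cell markers only 2 were tested, and both fell. Fabp2, the 1 intestinal marker tested, fell (740 in C26, 1518 in CT), while Vil1 and Cdx2 averaged under 10 reads a library. Among all genes 66.3% were called in C26 vs CT. In whole liver, fewer cells of a type and less RNA per cell cannot be told apart, and the part of these cell types in the results below was not tested.

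**Figure D1:**
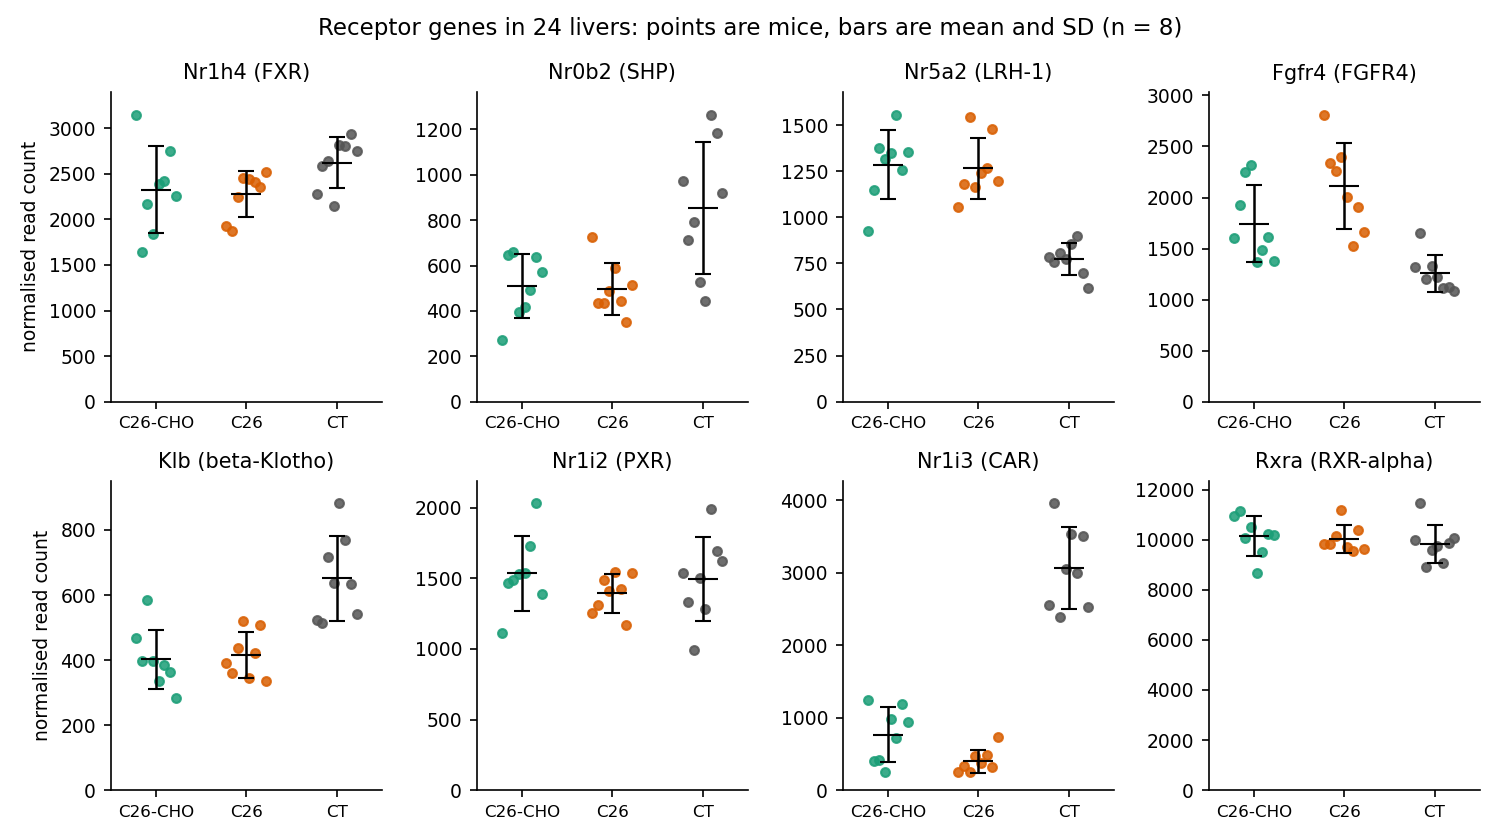
Normalised read count of the 8 receptor genes (vertical axes, starting at 0) in each of 24 livers by group (C26-CHO, C26, CT); points are mice, and bars are mean and SD (n = 8). Nr1i3 lay below every CT liver in all 16 tumour-bearing livers, Nr5a2 lay above every CT liver in all 16, and the Rxra ranges of the 3 groups overlapped.

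Nr1h4, the bile acid receptor itself, did not pass the test in any comparison with all mice in the fit. It ranged from 1638 to 3146 in C26-CHO livers (median 2322), from 1875 to 2524 in C26 livers (median 2384) and from 2142 to 2942 in CT livers (median 2697). The ranges overlapped in all 3 groups, although each of the 8 C26 livers lay below the CT mean of 2621. Its log2 fold change was -0.20 in C26 vs CT (SE 0.10, adjusted p = 0.0866, 95% interval -0.41 to 0.01) and 0.01 in C26-CHO vs C26 (SE 0.10, adjusted p = 0.98, interval -0.20 to 0.22). C26-CHO mouse 1 had the highest Nr1h4 value of its group, and without it the log2 fold change in C26-CHO vs CT passed the test, at -0.26 (adjusted p = 0.0201) in place of -0.19 (adjusted p = 0.109). Without CT mouse 4 the one in C26 vs CT passed as well, at -0.24 (adjusted p = 0.0439).

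Nr0b2, the corepressor gene that FXR induces, fell in both tumour-bearing groups. Its values ran from 272 to 659 in C26-CHO livers (median 532), from 350 to 727 in C26 livers (median 464) and from 445 to 1264 in CT livers (median 857). CT livers spread widely, with a coefficient of variation of 34.1%, so that the ranges overlapped, but all 8 C26 and all 8 C26-CHO livers lay below the CT mean of 852. The log2 fold change was -0.73 in C26 vs CT (SE 0.20, adjusted p = 0.00277) and -0.71 in C26-CHO vs CT (SE 0.20, adjusted p = 0.00369). In C26-CHO vs C26 it was 0.02, with an interval of -0.40 to 0.43.

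Nr5a2 encodes LRH-1, the nuclear receptor that SHP restrains at Cyp7a1 and Cyp8b1, and it moved opposite to Nr0b2. Values of Nr5a2 were 928 to 1555 in C26-CHO livers (median 1333), 1055 to 1543 in C26 livers (median 1220) and 618 to 897 in CT livers (median 777). No tumour-bearing liver overlapped the CT range. The log2 fold change was 0.71 in C26 vs CT (SE 0.09, adjusted p = 2.02e-07), 0.73 in C26-CHO vs CT (SE 0.09, adjusted p = 1.69e-07) and 0.02 in C26-CHO vs C26 (interval -0.17 to 0.21).

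LRH-1 is known to bind the Nr0b2 promoter, so the 250 bases upstream of the RefSeq start site of Nr0b2 and of the first of 2 listed for Nr5a2 are shown (GRCm38.p6), with matches to 7 motifs searched on both strands in capitals. In Nr0b2, at chr4:133553126-133553375 on the plus strand, CAAGGCCA at -201 to -194 matches the LRH-1 family motif CAAGGNCA, and TTCAATGAA at -91 to -83 matches the STAT core TTCNNNGAA. In Nr5a2, at chr1:136960449-136960698 on the minus strand, AGGTCA at -64 to -59 is the nuclear receptor core motif. The window of the second Nr5a2 start site, at chr1:136953631-136953880, held no match to the 7 motifs and is not shown. Over windows of the same length before 32851 start sites, CAAGGNCA was found in 5.53%, TTCNNNGAA in 7.02% and AGGTCA in 14.02%.
Nr0b2: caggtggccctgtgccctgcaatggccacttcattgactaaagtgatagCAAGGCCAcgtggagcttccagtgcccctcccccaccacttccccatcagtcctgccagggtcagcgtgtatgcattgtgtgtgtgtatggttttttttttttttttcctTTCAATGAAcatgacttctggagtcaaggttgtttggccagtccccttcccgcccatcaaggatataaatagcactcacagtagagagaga
Nr5a2: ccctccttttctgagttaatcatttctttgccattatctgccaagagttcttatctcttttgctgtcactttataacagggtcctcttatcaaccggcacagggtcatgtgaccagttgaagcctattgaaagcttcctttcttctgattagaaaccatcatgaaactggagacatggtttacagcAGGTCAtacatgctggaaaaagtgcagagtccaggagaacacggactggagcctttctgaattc
A match is a stretch of letters and not a measured binding site. The other 4 motifs were AGGTCA paired with itself 1 base apart as an inverted repeat (0.00609% of windows) or a direct repeat (0.0335%), the HNF4 core CAAAGTCCA (0.384%) and the C/EBP palindrome TTGCGCAA (0.164%), and none of these 4 occurred in the windows of the 8 genes.

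Fgfr4 and Klb, the kinase and the coreceptor that together form the hepatic FGF15 receptor, moved in opposite directions. Fgfr4 ranged from 1372 to 2321 in C26-CHO livers (median 1607), from 1525 to 2809 in C26 livers (median 2131) and from 1084 to 1654 in CT livers (median 1211). In C26, 7 of 8 livers lay above the highest CT liver, and in C26-CHO 3 of 8 did. The log2 fold change of Fgfr4 was 0.74 in C26 vs CT (SE 0.12, adjusted p = 1.16e-05) and 0.46 in C26-CHO vs CT (SE 0.12, adjusted p = 0.00256). Under scaling by total reads in place of size factors the second was 0.15 and no longer passed the test (adjusted p = 0.248). Between C26-CHO and C26 the Fgfr4 log2 fold change was -0.28 (SE 0.12), with an interval of -0.54 to -0.02 and an adjusted p of 0.329.

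Klb ranged from 284 to 585 in C26-CHO livers (median 391), from 335 to 519 in C26 livers (median 406) and from 515 to 882 in CT livers (median 635). In each tumour-bearing group 7 of 8 livers lay below the lowest CT liver. Its log2 fold change was -0.65 in C26 vs CT (SE 0.13, adjusted p = 0.00011), -0.70 in C26-CHO vs CT (SE 0.13, adjusted p = 4.55e-05) and -0.06 in C26-CHO vs C26 (interval -0.33 to 0.21).

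Nr1i2 and Nr1i3, which encode the related xenobiotic receptors PXR and CAR, had unlike values. Nr1i2 values were 1109 to 2029 in C26-CHO livers (median 1508), 1170 to 1546 in C26 livers (median 1417) and 993 to 1987 in CT livers (median 1521), and the 3 ranges overlapped throughout. Its log2 fold change was -0.08 in C26 vs CT (SE 0.11, adjusted p = 0.546, interval -0.31 to 0.15) and 0.13 in C26-CHO vs C26 (SE 0.11, adjusted p = 0.697, interval -0.11 to 0.36).

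Nr1i3 showed the largest change of the 8 genes in each comparison. It had 254 to 1244 in C26-CHO livers (median 828), 246 to 733 in C26 livers (median 350) and 2384 to 3957 in CT livers (median 3023). Every tumour-bearing liver, treated or not, lay below every CT liver. The log2 fold change was -3.00 in C26 vs CT (SE 0.27, adjusted p = 3.75e-10), an 8.00-fold lower level with a 95% interval of -3.56 to -2.44 on the log2 scale. In C26-CHO vs CT it was -2.168 (SE 0.27, adjusted p = 1.5e-07), a 4.49-fold lower level. Spread between mice was wide, with a coefficient of variation of 49.3% in C26-CHO and 40.0% in C26 against 18.4% in CT.

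Between the tumour-bearing groups Nr1i3 averaged 767 ± 378 in C26-CHO and 400 ± 160 in C26 (SD, n = 8 each), and 7 of 8 C26-CHO livers lay above the C26 mean, 4 of them above the highest C26 liver. The log2 fold change of 0.83 (SE 0.27, interval 0.27 to 1.39) did not pass in limma over all 14040 genes (adjusted p = 0.151). It passed with DESeq2 (0.94, adjusted p = 0.0364) and in limma without C26-CHO mouse 4 (1.03, adjusted p = 0.032). Without C26-CHO mouse 1, which had the highest Nr1i3 value of its group, it was 0.71 (adjusted p = 0.315).

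Exons of Nr1i3 overlap those of Tomm40l on the opposite strand, and the use of strand in counting is not given in the sources used here, so reads of the overlap cannot be assigned with certainty. Tomm40l had 102 ± 9.21 in C26-CHO, 96.3 ± 4.99 in C26 and 104 ± 17.9 in CT (SD, n = 8 each), well under the Nr1i3 values of every group. As the gene of largest change, Nr1i3 is shown with the 250 bases upstream of its start site (GRCm38.p6, chr1:171213720-171213969, plus strand), which held no match to the 7 motifs searched.
Nr1i3: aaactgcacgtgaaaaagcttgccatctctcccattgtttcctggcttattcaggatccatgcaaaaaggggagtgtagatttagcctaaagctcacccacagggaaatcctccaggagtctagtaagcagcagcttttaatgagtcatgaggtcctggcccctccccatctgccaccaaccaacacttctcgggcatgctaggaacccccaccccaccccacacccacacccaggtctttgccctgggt

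Rxra, the shared partner of FXR, PXR and CAR, was the most abundant of the 8 genes per base of transcript in every group. It ranged from 8672 to 11128 in C26-CHO livers (median 10213), from 9534 to 11182 in C26 livers (median 9843) and from 8912 to 11447 in CT livers (median 9803), and the ranges overlapped throughout. The log2 fold change was 0.03 in C26 vs CT (SE 0.06, adjusted p = 0.639) and 0.02 in C26-CHO vs C26 (SE 0.06, adjusted p = 0.946). That small difference depended on the scaling. Scaling by total reads moved the median of all genes by -0.34 in C26 vs CT and gave Rxra -0.32 (adjusted p = 2.36e-05), that is, a value near the shifted median, while quantile normalization gave 0.39 (adjusted p = 1.31e-07).

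The same scaling by total reads called 2347 genes higher and 8178 lower in C26 vs CT, against 4681 higher and 4624 lower with size factors. Under it all 8 receptor genes passed the test, with Nr5a2 at 0.36 and Fgfr4 at 0.39 still higher and Nr1h4 at -0.55, Nr1i2 at -0.43, Nr0b2 at -1.07, Klb at -0.99 and Nr1i3 at -3.35 lower. Relative to the shifted median of all genes, Nr1h4 and Nr1i2 were thus at about the same place as with size factors. Under quantile normalization the sign of Nr1h4 (0.00) and Nr1i2 (0.03) turned, neither passing the test, while Nr5a2 (0.78), Fgfr4 (0.87), Nr0b2 (-0.70), Klb (-0.63) and Nr1i3 (-2.88) kept theirs.

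**Figure D2:**
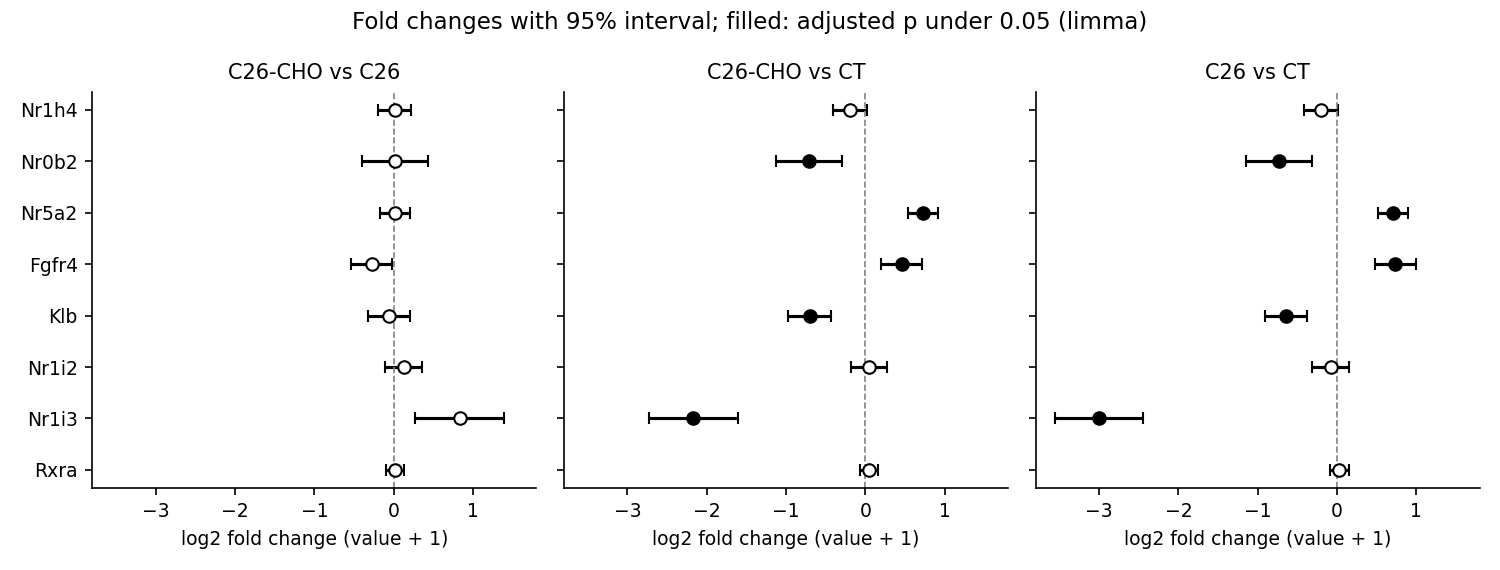
Log2 fold change of value + 1 (horizontal axis) with its 95% interval for the 8 receptor genes in C26-CHO vs C26, C26-CHO vs CT and C26 vs CT (panels); filled points passed the limma test at an adjusted p under 0.05. The 5 filled genes are the same in the panels against CT, and no gene is filled in C26-CHO vs C26.

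None of the 8 genes was called in C26-CHO vs C26 with limma, where 0.705% of all genes were called, 0.556% higher and 0.15% lower. Nr1i3 and Fgfr4 had an unadjusted p under 0.05, and DESeq2 called 1, Nr1i3. In C26-CHO vs CT 5 of 8 were called, against 62.2% of all genes (31.3% higher and 30.9% lower): Nr5a2 and Fgfr4 higher, Nr0b2, Klb and Nr1i3 lower. Both comparisons with CT share the CT mice, so they are not separate evidence. The widest interval in C26-CHO vs C26 other than that of Nr1i3 belonged to Nr0b2, at -0.40 to 0.43, which allows a level up to 1.35-fold higher.

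Levels can be compared between genes when set per kilobase of merged exons. On that scale the order in CT livers was Rxra (1800 ± 142), Nr1h4 (1138 ± 121), Nr0b2 (753 ± 257), Nr1i3 (694 ± 128), Nr1i2 (585 ± 117), Fgfr4 (355 ± 52.2), Klb (143 ± 28.7) and Nr5a2 (131 ± 14.9; SD, n = 8). Only Rxra over Nr1h4 and Fgfr4 over Klb were neighbours in this order whose ranges over mice did not overlap. In C26 livers Nr1i3, at 90.7 ± 36.3 per kilobase, came last with a range that overlapped that of Klb at 91.1 ± 15.4, and Fgfr4, at 596 ± 119, had moved to the third place behind Rxra (1836 ± 99.1) and Nr1h4 (990 ± 108). In C26-CHO livers Nr1i3 stood at 174 ± 85.7 between Nr5a2 (218 ± 31.3) and Klb (88.3 ± 20.04), with overlapping ranges on both sides. The order depends on the length used: per kilobase of the longest coding transcript Nr1i3 stood above Klb in C26 livers (134 ± 53.8 and 117 ± 19.8) and above Nr0b2 in CT livers (1028 ± 189 and 753 ± 257).

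Ratios between partners in the same liver hardly depend on how a library is scaled. The ratio of Klb to Fgfr4 fell in both tumour-bearing groups: its geometric mean was 0.231 in C26-CHO, 0.198 in C26 and 0.515 in CT. As mean log2 ratio that was -2.12 ± 0.25 in C26-CHO, -2.34 ± 0.35 in C26 and -0.96 ± 0.41 in CT (SD, n = 8), and no tumour-bearing liver reached the CT range of -1.68 to -0.47. The difference was -1.38 in C26 vs CT and -1.16 in C26-CHO vs CT (exact two-sided permutation test over 12870 splits, adjusted p = 0.000466 for each over 4 ratios and 3 comparisons). The unadjusted p of 0.000155 behind both is the smallest this test can give. Between C26-CHO and C26 livers it was 0.22 (exact permutation test, adjusted p = 0.198).

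The ratio of Nr1i3 to Nr1i2, CAR over PXR, fell below 1 in both tumour-bearing groups. On counts not set per length its geometric mean was 0.444 in C26-CHO livers and 0.272 in C26 livers, against 2.06 in CT livers. The log2 ratio fell by 2.92 in C26 vs CT and by 2.21 in C26-CHO vs CT (exact permutation tests, adjusted p = 0.000466 each). It was 0.71 higher in C26-CHO than in C26 without passing the test (adjusted p = 0.101, exact permutation), and without C26-CHO mouse 4 it was 0.91 higher and passed (adjusted p = 0.0216).

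Nr0b2 over Nr5a2, the corepressor over its target receptor, had a geometric mean of 0.387 in C26-CHO, 0.387 in C26 and 1.05 in CT. The log2 difference was -1.44 in C26 vs CT (exact permutation test, adjusted p = 0.000932), -1.44 in C26-CHO vs CT (adjusted p = 0.000746) and 0.00 in C26-CHO vs C26 (adjusted p = 0.993). Nr0b2 over Nr1h4, the induced gene over its inducer, fell by 0.53 in log2 terms in C26 vs CT, which did not pass (exact permutation test, adjusted p = 0.065), and passed without CT mouse 5 (-0.66, adjusted p = 0.00986) or without C26 mouse 1 (-0.64, adjusted p = 0.0186). In C26-CHO vs CT this ratio differed by -0.52 (adjusted p = 0.12, exact permutation), and by -0.66 without CT mouse 5 (adjusted p = 0.0319).

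**Figure D3:**
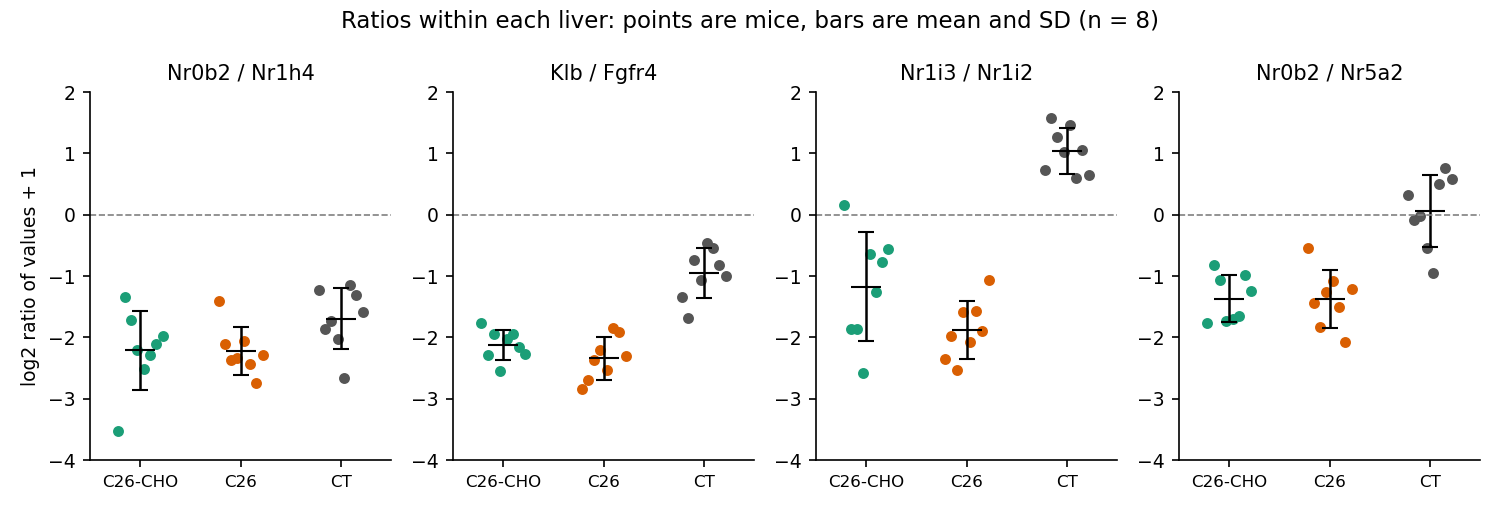
Log2 ratio of value + 1 between 2 receptor genes (vertical axis) in each liver by group (C26-CHO, C26, CT); points are mice, bars are mean and SD (n = 8), and the dashed line marks equal values. Klb over Fgfr4 and Nr1i3 over Nr1i2 lay below the CT range in all 16 tumour-bearing livers, while Nr0b2 over Nr1h4 overlapped between the groups.

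Genes linked to these receptors were taken as lists. Of 11 FXR target genes 9 were tested: 6 fell and 3 rose in C26 vs CT, with a median of -0.73 against 0.01 over all genes. The share called was 100%, against 66.3% of all genes (33.3% higher and 32.9% lower). Nr0b2 itself is one of the 9, and the list median is its value. The bile salt export pump Abcb11 averaged 6064 ± 738 in C26 livers and 11818 ± 2479 in CT livers (SD, n = 8 each), which is -0.94 on the log2 scale (SE 0.14, limma adjusted p = 1.26e-06). The phospholipid exporter Abcb4 (-0.93), the conjugate exporter Abcc2 (-1.48) and the bile acid conjugating enzyme Baat (-0.73) fell as well. The proteoglycan gene Sdc1 rose (1.24, adjusted p = 5.18e-11), as did Pltp (0.77) and Apoc2 (0.92), whose products transfer phospholipids and activate lipoprotein lipase. Slc51b, another listed target, averaged 7.11 in C26, 5.49 in C26-CHO and 1.68 in CT livers, under the mean of 10 needed for the test. With no filter on the mean, 4 of 10 FXR targets rose and 6 fell in C26 vs CT. None of the 9 FXR targets was called in C26-CHO vs C26 with limma, where 0.705% of all genes were called. DESeq2 called Abcc2 (0.40, adjusted p = 0.0411).

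Bile acid synthesis genes, among them Cyp7a1 and Cyp8b1, which SHP and FGFR4 signalling repress, were mostly lower in C26 livers than in CT livers. Of 8 listed, 6 fell and 0 rose in C26 vs CT, with a median of -1.26 (0 higher and 7 lower under scaling by total reads, 1 and 5 under quantile normalization). The share called was 75.0%, against 66.3% of all genes. Cyp7a1, the rate-limiting enzyme, averaged 1223 ± 2030 in C26-CHO, 87.0 ± 92.5 in C26 and 5305 ± 1503 in CT livers (SD, n = 8). The medians were 589 in C26-CHO, 53.0 in C26 and 5134 in CT. C26-CHO mouse 1 alone had 6203 and C26 mouse 8 had 300.1, and without them the means were 511 ± 291 in C26-CHO and 56.6 ± 36.7 in C26 (SD, n = 7 each). In C26-CHO vs C26, with Nr0b2, Nr5a2, Klb and Fgfr4 at 0.02, 0.02, -0.06 and -0.28, none of them called, 3 of the 8 rose: Cyp7a1 by 3.18 (adjusted p = 0.0157), Cyp8b1, which sets the share of cholic acid, by 2.168 (adjusted p = 0.00394) and Cyp27a1, which opens the alternative route, by 0.80 (adjusted p = 0.0208). Without C26-CHO mouse 1 these were 2.68, 1.92 and 0.64, and all 3 still passed. With all mice in the fit the share called was 37.5%, against 0.705% of all genes. Without C26 mouse 1 or C26-CHO mouse 7, 2 of the 8 passed, and with only the 2 tumour-bearing groups in the fit 1 did.

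Of 20 genes of FGF receptor signalling 17 were tested, and 5 rose and 6 fell in C26 vs CT (median -0.05); under scaling by total reads the split was 3 higher and 10 lower. The share called, 64.7%, was near the 66.3% of all genes. Among the other receptors, Fgfr1 rose by 1.83 (218 ± 41.6 in C26, 60.8 ± 12.3 in CT), whereas Fgfr3 fell by 1.11 and the decoy-like receptor Fgfrl1 fell by 1.49. Fgf21, a liver hormone that also signals through beta-Klotho, rose by 1.45 (adjusted p = 0.00836), and the docking protein Gab1 fell by 0.77. Fgfr1 was the single gene of the list called in C26-CHO vs C26, with -0.69 (adjusted p = 0.0401). That call was lost without C26-CHO mouse 1 (-0.60, adjusted p = 0.0832) and with edgeR (adjusted p = 0.0512), and it held in 10 of the 24 fits that left out 1 mouse.

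PXR and CAR targets, 16 genes in each list with 7 in common (43.75% of each), were the lists with the lowest medians in C26 vs CT. Of 15 tested PXR targets 14 fell and 1 rose in C26 vs CT, with a median of -3.28, while Nr1i2 itself had -0.08. The share called was 100%, against 66.3% of all genes (33.3% higher and 32.9% lower). Cyp3a11, the main drug-oxidising enzyme that PXR induces in mice, averaged 373 ± 816 in C26 and 49716 ± 5874 in CT livers (SD, n = 8 each). C26 mouse 8 alone had 2392, the C26 median was 87.0, and the C26 mean without that mouse was 84.7 ± 14.7 (SD, n = 7). The transporter gene Slco1a4 fell by 4.78 (adjusted p = 1.91e-15). Cyp3a13, of the same enzyme family, rose by 2.14 (adjusted p = 1.8e-13). Of 15 tested CAR targets 12 fell and 1, the exporter gene Abcc4, rose in C26 vs CT, with a median of -2.23. The share of CAR targets called was 86.7%, against the same 66.3% of all genes. Cyp2c37, which CAR induces, had 33.3 ± 23.3 in C26 and 1525 ± 366 in CT livers (log2 fold change -5.68, adjusted p = 8.26e-12), and the bilirubin conjugating enzyme Ugt1a1 fell by 2.23. Reads of near-identical Cyp2c and Cyp3a genes may have been divided in counting, so single values of these genes are uncertain.

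In C26-CHO vs C26, 4 of 15 CAR targets rose and 0 fell: Cyp2c50 by 2.45 (adjusted p = 0.0208), Cyp2c54 by 2.10 (adjusted p = 0.0239), Cyp2c37 by 1.97 (adjusted p = 0.0244) and Ugt1a1 by 0.65 (adjusted p = 0.0291). Of 15 PXR targets 2 rose, Slco1a4 by 1.06 (adjusted p = 0.0258) and Ugt1a1, while Cyp3a11 had -0.11 (adjusted p = 0.973). Without C26-CHO mouse 1, 3 CAR and 1 PXR targets passed, and without C26 mouse 1 or C26-CHO mouse 7 none of either list did, nor with only those 2 groups in the fit. CAR calls fell to 2 without C26 mouse 6 and 1 without C26 mouse 7, and PXR calls to 0 without C26 mouse 2 and 1 without C26 mouse 6 or 7 or C26-CHO mouse 5, 6 or 8. DESeq2 called 7 CAR and 4 PXR targets. Beside the counts stand 99 genes called of 14040.

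**Figure D4:**
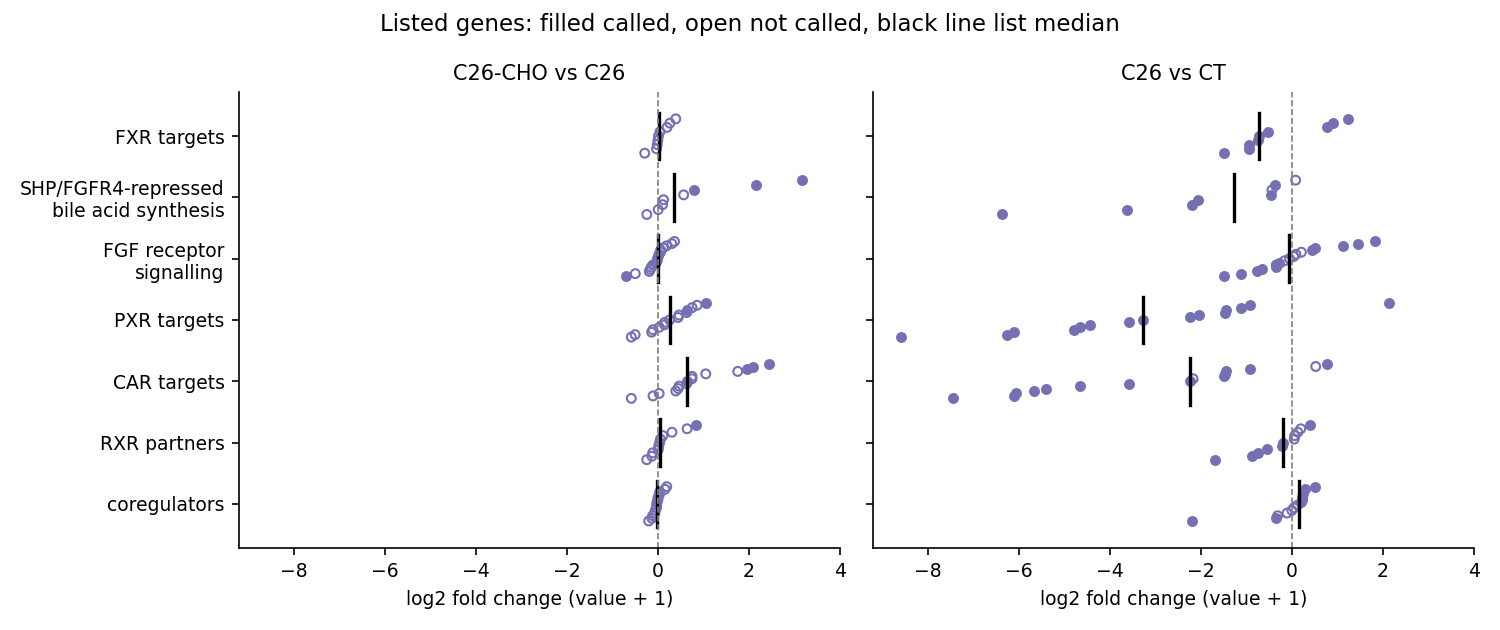
Log2 fold change of value + 1 (horizontal axis) of each tested gene of 7 lists (rows) in C26-CHO vs C26 and in C26 vs CT; filled points passed the limma test and black lines are list medians. PXR and CAR targets reach the lowest values in C26 vs CT, with medians of -3.28 and -2.23, and the coregulators stay within 0.52 of 0 apart from Ppargc1b at -2.20.

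Of 11 tested genes for other RXR partners 6 fell and 1 rose in C26 vs CT (7 and 0 under scaling by total reads, 4 and 2 under quantile normalization): the fatty acid receptor Ppara fell by 1.69 (adjusted p = 4.04e-09), Pparg by 0.87, the retinoic acid receptor Rarb by 0.74 and the thyroid hormone receptor Thra by 0.54. Pparg rose in C26-CHO vs C26 by 0.84 (adjusted p = 0.0208), and 0.72 without C26-CHO mouse 1 (adjusted p = 0.032); it did not pass without C26-CHO mouse 7 (0.80, adjusted p = 0.0595) or with only those 2 groups in the fit (0.84, adjusted p = 0.0575). Both RXR paralogs fell in C26 vs CT, Rxrb by 0.31 (580 ± 49.5 in C26, 719 ± 62.3 in CT) and Rxrg by 1.21 (54.8 ± 14.1 in C26, 126 ± 25.6 in CT). Among 14 coregulators 6 rose and 2 fell (1 and 8 under scaling by total reads), with Ncoa6 at 0.52, Ncoa2 at 0.29 (-0.06 under scaling by total reads), Ncoa3 at -0.36 and the coactivator Ppargc1b at -2.20. The shares called, 63.6% of the RXR partners and 57.1% of the coregulators, were near or under the 66.3% of all genes. None of the coregulators was called in C26-CHO vs C26, where 0.705% of all genes were called.

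For proteins linked to where CAR is held in the cell 5 genes were listed: Dnajc7, Ptges3, Hsp90aa1, Hsp90ab1 and Ppp1r16a. The share called in C26 vs CT was 60.0%, against 66.3% of all genes, and Ppp1r16a did not pass the test. Dnajc7, the cochaperone that binds CAR, fell by 0.36 in C26 vs CT (632 ± 34.0 in C26, 812 ± 59.3 in CT, adjusted p = 8.6e-07), and Ptges3 fell by 0.19. Hsp90aa1 rose by 0.43, and Hsp90ab1 had -0.18 without passing the test (0.09 under quantile normalization). Of 11 hepatocyte transcription factors 3 rose and 3 fell, with Foxa1 at -1.004, Nr2f2 at -0.59, Prox1 at 0.91 and Foxa3 at 0.79. The share of these factors that was called, 54.5%, lay under the 66.3% of all genes. Hnf4a, needed for hepatocyte identity, rose by 0.40 (adjusted p = 0.000175). Of 4 other listed receptor genes 2 were tested. S1pr2 rose by 1.47, and Nr3c1, which encodes the glucocorticoid receptor, a steroid hormone receptor, fell by 0.58. The bile acid receptor gene Gpbar1 averaged 2.15 in C26 and 0.11 in CT livers, under the mean of 10 needed for the test.

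Mice of a group also differed from one another in a common way for 1 pair of the 8 genes. After each group mean was removed, Nr1h4 and Nr1i3 were correlated over the 24 mice (Pearson r = 0.73, Spearman rho = 0.70; permutation within groups, 100000 draws, adjusted p = 0.0146 and 0.0188 over 28 pairs of the 8 genes). This comparison was added after the values were seen, and none of the other 27 pairs passed. Within groups r was 0.85 in C26-CHO, 0.66 in C26 and 0.24 in CT. It was 0.66 without the 2 mice farthest from the median and 0.69 without C26-CHO mouse 1, which held the highest value of both genes in its group.

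**Figure D5:**
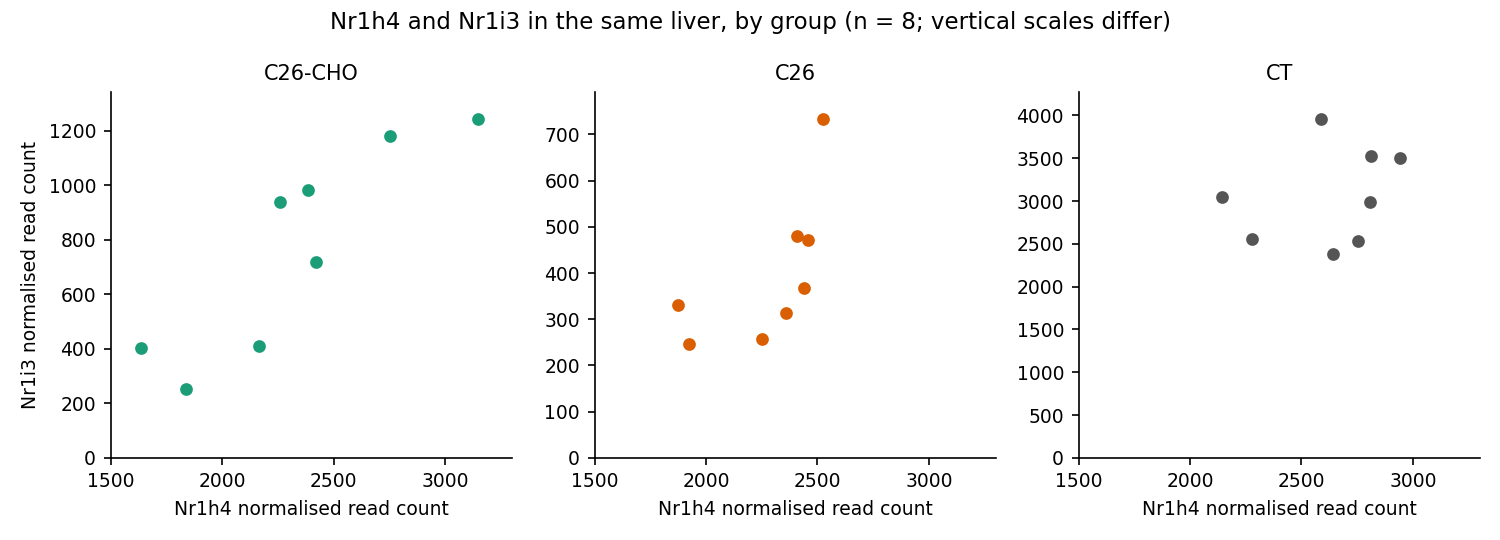
Normalised read count of Nr1i3 (vertical axes, with scales that differ between panels) against that of Nr1h4 (horizontal axis) in the livers of each group (C26-CHO, C26, CT; n = 8 mice each). In C26-CHO livers the pair runs together (r = 0.85 on the log2 scale), in C26 livers less closely (r = 0.66) and in CT livers hardly (r = 0.24).

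Receptors and their listed partners were also correlated within each group, for 12 pairs and 36 tests. None passed after adjustment. The smallest p belonged to Nr1i3 and Cyp2c37 in C26-CHO livers, with r = 0.78 (exact permutation p = 0.0188, adjusted p = 0.479), rho = 0.90 (exact permutation p = 0.00456, adjusted p = 0.164) and r = 0.67 without the 2 mice farthest from the median of Nr1i3. By the p of r, next came Nr5a2 and Nr0b2 in C26 livers, with r = -0.75 (exact permutation p = 0.0326, adjusted p = 0.479). Nr0b2 and Cyp8b1 in C26-CHO livers had r = -0.73 (exact permutation p = 0.0424, adjusted p = 0.479). For Nr0b2 and Cyp7a1 in C26-CHO livers r was -0.72 (exact permutation p = 0.0533, adjusted p = 0.479) and -0.38 without mice 1 and 4. That pair had r = -0.14 in C26 and -0.36 in CT livers. Nr1i3 and Cyp2b10 had r = -0.23 in C26-CHO livers.

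Genes whose values followed a receptor gene most closely over the 24 mice, after removal of group means, were searched among 10488 genes. For Nr1i3 these were Rab43 (Spearman rho 0.90), Pank1 (0.89) and Rbp4 (0.89), for Fgfr4 Fam210b (0.93), Fam160a1 (0.89) and Ceacam1 (0.88), and for Nr1h4 Gclm, Fdx1 and Ttc39c (0.85 to 0.87). Nr1i2 ran with Cdhr5, Fgf1 and Supt6 (0.84 to 0.86), Nr5a2 with Lgr4, Sepsecs and Lrrfip1 (0.82 to 0.84) and Klb with Itih5, Mapk6 and Lamp2 (0.75 to 0.77). The closest genes to Nr0b2 were Tmed9, Selenos and Rabepk (0.71 to 0.73), and those to Rxra were Eml3, Nacc2 and Sphk2 (0.71 to 0.72). These are descriptions of the mice measured, since the highest of so many values was picked, and leaving out C26-CHO mouse 1 kept them between 0.68 and 0.93.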

How the data were processed

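Liver RNA of 24 mice was sequenced, 1 library per mouse. Per the submitters' processing notes, the tools were bcl2fastq 2.17, FastQC, Trimmomatic 0.38, STAR 2.6.1d and DESeq2 1.22.2 and the build was GRCm38. No source used here names the counting tool, the annotation or whether strand was used. The authors deposited a normalised signal, the read count of each gene divided by a size factor of the library, as the values themselves show. In 100% of values a whole number of reads was recovered, within a tolerance of 0.001 reads, so depth is known. Symbols were found for 22009 genes with GENCODE M21 and missing for 383, which held 0.118% of reads.

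limma 3.58.1 (R 4.3.3, trended variance) was run on log2(value + 1) for the 14040 genes whose mean reached 10, with all 24 libraries in 1 fit of the 3 groups, no covariate and Benjamini-Hochberg adjustment within each comparison. An adjusted p of a single gene comes from limma where no other tool is named. Ratios were tested by exact two-sided permutation (scipy 1.17.1). Alternatives were edgeR 4.0.16 and DESeq2 1.42.0 on the recovered reads, quantile normalization, total-read scaling, other pseudocounts and filters, 2 groups in the fit, a replicate block and each mouse left out. Means of Cyp7a1 and Cyp3a11 without the highest mouse were added after seeing the data. Fitting was tested on simulated counts with few genes changed, a common dispersion and known size factors. That test does not cover the many changed genes, unequal spreads and dependence on scaling found here. Named genes are the 8 receptors, the 12 listed partner pairs and the 3 most alike genes of each receptor. To these come up to 4 genes of each list with the smallest p in a comparison. Pltp, Slc51b, Abcc4, Fgf21, Apob, Serpina1a, Epcam, Cftr, Vil1, Cdx2, Gpbar1 and Tomm40l fall outside that rule and were chosen after their values were seen. Same-numbered mice share a number only. A p-value sets a difference against the spread between mice, and the main limma fit pools that spread over the 3 groups. Members and lists were chosen with earlier results of these data known. Promoter sequences are from RefSeq (GRCm38.p6), matched by symbol for all 8 genes. Fgf15, Malrd1, Slc51a, Prmt1, Sis and Fabp6 were not analysed here.

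Depth was 25.8 ± 3.50 in C26-CHO, 22.8 ± 2.90 in C26 and 22.0 ± 1.10 in CT (reads per library divided by 1e6, SD, n = 8). No column of the table was left unused.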

Additional observations from a re-analysis of the deposited data

Results flagged for a closer look

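CT mouse 2 stood apart from the other 7 CT livers for 2 of the receptor genes. Its Fgfr4 value of 1654 was the highest of the CT group, and the gap to the next liver made up 0.574 of the group's range. Its Rxra value of 11447 was also the highest, with a gap of 0.544 of the range. Both gaps exceed Dixon's 95% critical value for 8 samples. In all 36 sets of 8 values were examined, and chance flags about 1 in 20 of such sets.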

How the results depend on the processing

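In C26 vs CT, scaling by total reads called all 8 receptor genes and gave Nr1h4 -0.55, Nr1i2 -0.43, Rxra -0.32 and Ncoa2 -0.059, whereas quantile normalization gave Nr1h4 0.0033, Nr1i2 0.031, Rxra 0.39 and Hsp90ab1 0.094. With 2 groups in the fit Nr1h4 was -0.20 and passed (adjusted p = 0.0267, limma). In C26-CHO vs CT, total reads gave Nr1h4 -0.50, Fgfr4 0.15, Nr1i2 -0.26 and Rxra -0.26, and quantile normalization gave Rxra 0.35. In C26-CHO vs C26, quantile normalization gave Nr1h4 -0.049, Nr5a2 -0.012 and Rxra -0.040, and DESeq2 called 327 genes and 1 of the 8 receptors (Nr1i3, 0.94) where limma called 99 genes and edgeR 117. With 2 groups in the fit 10 genes were called. That fit holds fewer samples; the cause of the other changes was not tested.

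Leaving out each mouse in turn gave 23 (without C26-CHO mouse 7) to 273 genes called (without C26-CHO mouse 3) in C26-CHO vs C26, 25 without C26 mouse 1, and 0 to 1 of the 8 receptors. The ranges there were -0.056 to 0.079 for Nr1h4, -0.051 to 0.14 for Nr0b2, -0.022 to 0.084 for Nr5a2, -0.14 to 0.0094 for Klb, 0.71 to 1.03 for Nr1i3 and -0.0044 to 0.047 for Rxra. In C26 vs CT Nr1h4 ran from -0.24 to -0.16. In C26-CHO vs CT it ran from -0.26 to -0.12 and Nr1i2 from -0.034 to 0.11. The log2 ratio of Nr0b2 to Nr1h4 differed by -0.66 to -0.45 in C26 vs CT, -0.12 to 0.19 in C26-CHO vs C26 and -0.66 to -0.33 in C26-CHO vs CT. That of Nr1i3 to Nr1i2 differed by 0.51 to 0.91 and that of Nr0b2 to Nr5a2 by -0.10 to 0.12 in C26-CHO vs C26.

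Pairing by replicate number had no support in the labels, and same-numbered mice correlated at -0.20 to 0.25. With the number as a replicate block, 4847 genes were called higher and 4796 lower in C26 vs CT, 69 and 28 in C26-CHO vs C26, and 4559 and 4520 in C26-CHO vs CT, with 5, 0 and 5 of the 8 receptors. In C26-CHO vs C26 the block called 1 FXR target (Abcc2, 0.40, adjusted p = 0.0357) against 0 without it, 0 PXR targets against 2, and 3 CAR targets against 4. The lowest read count of a receptor gene in a library was 215, so counting error is small beside the spread between mice.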
